A study of Mus musculus with 6 samples.

Results

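The genes described here are 34 immediate early genes, chosen by symbol from a fixed list and grouped by gene family. This list and the further gene lists below were chosen with earlier results of these data known. Their contrasts with all genes are therefore not independent of the data. All 34 symbols were found in both deposited expression tables, which share 24067 symbols. Polyadenylated RNA came from satellite cells of adult mice, which are the stem cells that repair muscle, in 2 states. Activated satellite cells (ASC) had been cultured for 36 h in medium with serum and were sequenced as 1 library labelled iKO for Yy1 and 1 wild-type (WT) library. Freshly isolated satellite cells (FISC) were likewise sequenced as 1 iKO and 1 WT library. A YY1 immunoprecipitation and its input, from ASC labelled C57, gave 1 list of peaks. The sources used here do not give the driver of the Yy1 deletion, the age and sex of the animals or any pooling. With 1 library per group there was no replicate check and no test, so every difference below describes these libraries. Time since isolation, culture and activation changed together between FISC and ASC and cannot be told apart.

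Immediate early genes are transcribed within minutes of a stimulus from factors already present in the cell, without new protein synthesis. Their promoters are served by serum response factor (SRF) with its cofactors, which bind the CArG box, and by CREB proteins, which bind the cAMP response element; both act downstream of MAP kinases. Many of the products are transcription factors (Fos, Jun, Egr, Nr4a and Klf proteins), and others end the response, such as the Dusp phosphatases, which inactivate MAP kinases, and the Zfp36 proteins, which send AU-rich transcripts to decay. In satellite cells, transcripts of this class are known to be abundant soon after isolation from muscle.

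The promoters of a few members show these elements next to the start site. Of the 34 genes, 26 had a promoter in the RefSeq table (build GRCm38.p6). The 8 without one were Fosl1, Egr1, Egr3, Ier2, Klf10, Zfp36l2, Ctgf and Arc. The set below holds the 4 genes with a CArG box within the 250 bases before or the 50 bases after a listed start, together with Fos, which had the lowest ratio on activation, and Cyr61, which had the highest level after culture. Each line gives the 250 bases before the start, 5′ to 3′. Capitals mark a CArG box (CC, 6 letters that are A or T, GG), a TATA box (TATAAA) or an EGR motif (GCGNGGGCG), on either strand. The positions are chr19:53528895-53529144 (+ strand) for Dusp5, chr17:46556163-46556412 (- strand) for Srf, chr7:28379229-28379478 (- strand) for Zfp36, chr10:67537619-67537868 (+ strand) for Egr2, chr12:85473640-85473889 (+ strand) for Fos and chr3:145649986-145650235 (- strand) for Cyr61.
Dusp5: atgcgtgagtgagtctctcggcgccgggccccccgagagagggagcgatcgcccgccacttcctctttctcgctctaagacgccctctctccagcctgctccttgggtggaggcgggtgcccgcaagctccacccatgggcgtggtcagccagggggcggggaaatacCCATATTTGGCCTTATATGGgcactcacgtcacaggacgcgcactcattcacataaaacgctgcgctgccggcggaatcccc
Srf: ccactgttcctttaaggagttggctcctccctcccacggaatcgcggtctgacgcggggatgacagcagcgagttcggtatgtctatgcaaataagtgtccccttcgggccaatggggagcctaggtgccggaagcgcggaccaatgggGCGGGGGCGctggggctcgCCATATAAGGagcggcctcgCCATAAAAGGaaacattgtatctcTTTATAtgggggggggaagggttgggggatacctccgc
Zfp36: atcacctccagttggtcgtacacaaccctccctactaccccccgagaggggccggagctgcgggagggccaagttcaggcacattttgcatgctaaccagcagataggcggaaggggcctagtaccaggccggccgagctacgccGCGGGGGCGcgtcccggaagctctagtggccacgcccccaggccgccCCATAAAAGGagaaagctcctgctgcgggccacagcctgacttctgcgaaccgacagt
Egr2: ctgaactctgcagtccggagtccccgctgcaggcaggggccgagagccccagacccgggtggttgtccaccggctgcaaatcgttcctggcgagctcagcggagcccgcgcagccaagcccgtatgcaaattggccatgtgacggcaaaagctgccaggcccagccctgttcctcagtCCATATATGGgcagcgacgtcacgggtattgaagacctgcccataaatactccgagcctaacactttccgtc
Fos: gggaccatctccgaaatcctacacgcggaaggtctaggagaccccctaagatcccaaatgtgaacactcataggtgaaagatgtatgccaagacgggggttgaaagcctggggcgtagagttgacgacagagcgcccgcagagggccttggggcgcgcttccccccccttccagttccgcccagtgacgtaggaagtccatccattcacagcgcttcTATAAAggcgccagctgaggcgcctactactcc
Cyr61: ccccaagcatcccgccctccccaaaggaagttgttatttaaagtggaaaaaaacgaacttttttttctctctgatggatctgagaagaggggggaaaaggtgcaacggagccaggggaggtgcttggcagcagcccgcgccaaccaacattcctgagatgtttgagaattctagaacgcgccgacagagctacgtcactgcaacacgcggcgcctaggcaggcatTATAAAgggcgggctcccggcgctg

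Dusp5 had 2 CArG boxes joined end to end, starting 82 and 72 bases before the start site, and Srf had 2 that began 82 and 62 bases before it. Zfp36 had 1 at 58 bases and the shown Egr2 promoter 1 at 72 bases; 4 of the 5 Egr2 promoters in the table held a CArG box, and 3 of these 4 windows overlap. Counted by gene, 4 of 26 members (15.4%) held a CArG box, against 1.81% of the 27025 genes in the table. The EGR motif was found in 10 members (38.5%), against 6.27% of all genes, and the cAMP response element (TGACGTCA) in 2 (7.69%), Dusp1 and Maff, against 2.03%. The AP-1 motif (TGANTCA), the site of Fos-Jun dimers, was found in 1 member, Zfp36l1 (3.85%), against 8.97%, and the YY1 core (GCCATNTT) in 0 of 26, against 6.96%. TATAAA was found in 6 members (23.1%) and in 15.7% of all genes. Motifs were searched on both strands in the 300-base windows, and these shares describe letters in those windows and not binding. The EGR motif and the TATA box were added to the search after the data were seen. All genes here means every gene with a listed promoter, with no filter on expression and no matching for base composition.

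In the 4 RNA libraries, 10657 to 10947 genes reached 1 FPKM, a fragment count scaled to transcript length and to the fragments of the library. FPKM carries no read totals. The commonest ratio of iKO over WT between low values was 1.5 in ASC and 1 in FISC, shared by 17.2% and 26.7% of such genes. If FPKM was scaled to total fragments, the ASC WT library had 1.5 times the depth of ASC iKO, and the FISC libraries had equal depth. The scaling used is not given, so these depths are not certain. Yy1 itself stood at 2.03 FPKM in ASC iKO and 55.2 FPKM in ASC WT, and at 20.1 FPKM in FISC iKO and 50.98 FPKM in FISC WT. Of 9 satellite cell markers, 0 were listed at 0 in any library, the lowest being Calcr at 0.512 FPKM in ASC iKO and 1.14 FPKM in ASC WT. Pax7 stood at 6.19 FPKM in ASC iKO and 28.3 FPKM in ASC WT, and at 78.3 FPKM in FISC iKO and 61.8 FPKM in FISC WT. With 1 added to each FPKM, Pax7 and Vcam1 were the 2 of the 9 that were at least 2-fold lower in ASC iKO than in ASC WT. On that scale 8.26% of 11215 genes were so. Calcr was past 2-fold only without the added 1.

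In FISC the immediate early genes were among the most abundant transcripts, and in ASC most were not. Their FPKM summed to 1377 in ASC iKO and 1563 in ASC WT, against 14454 in FISC iKO and 12504 in FISC WT. As a share of the summed FPKM of all genes other than small RNA genes, that was 0.184% in ASC iKO and 0.311% in ASC WT, and 2.74% in FISC iKO and 2.30% in FISC WT. The median member stood at 14.7 FPKM in ASC iKO and 18.7 FPKM in ASC WT, close to the median of all genes at 1 FPKM or more (13.6 FPKM in ASC iKO and 14.1 FPKM in ASC WT). In FISC the median member stood at 223 FPKM in iKO and 229 FPKM in WT, against 10.3 FPKM for all such genes in each library. At least 100 FPKM was reached by 3 members in ASC iKO and 2 in ASC WT, against 22 in FISC iKO and 23 in FISC WT.

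**Figure D1:**
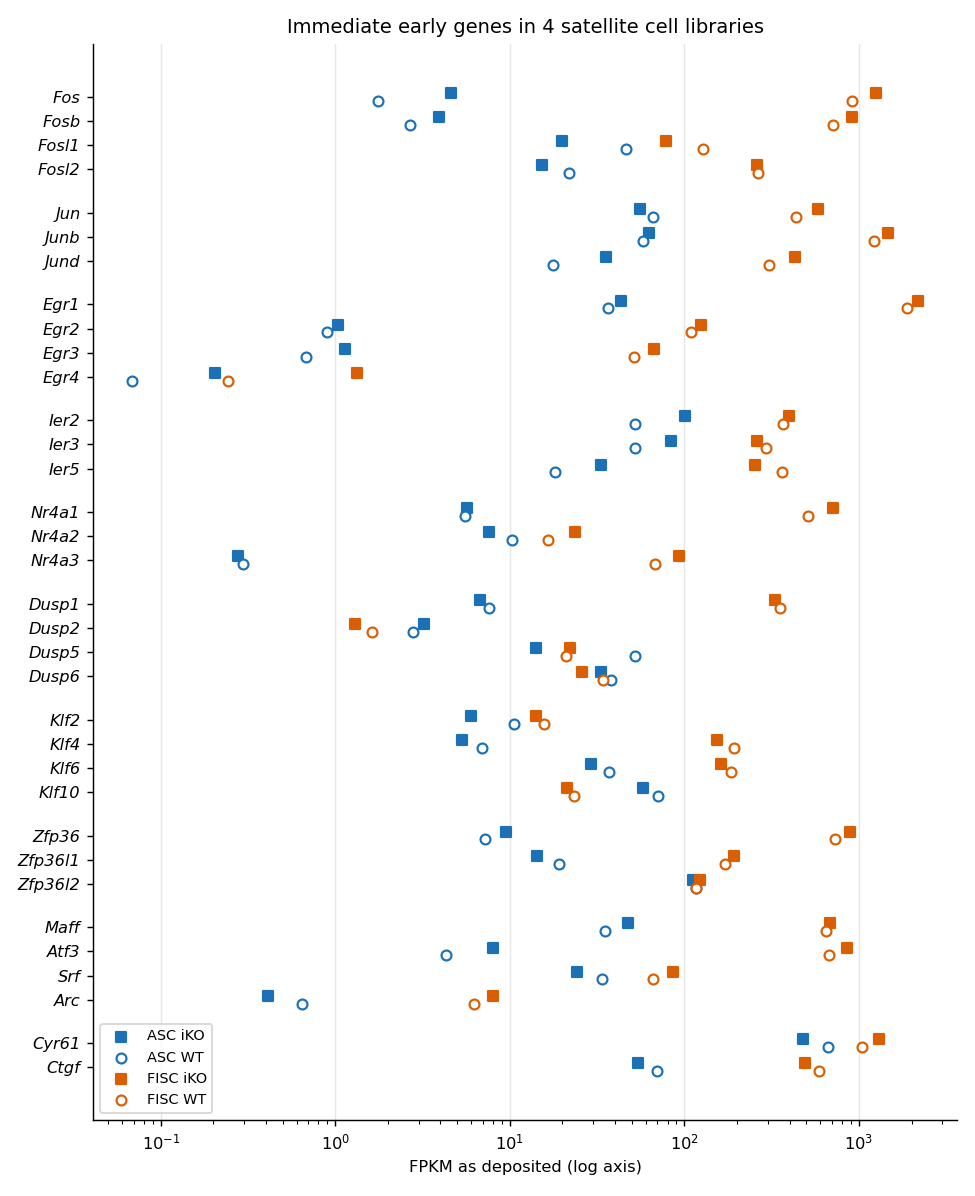
FPKM as deposited (log axis) of the 34 immediate early genes in 4 libraries, 1 point per library, filled squares for iKO and open circles for WT, blue for ASC and orange for FISC. Most genes lie far to the left in ASC, whereas Klf10, Dusp2 and Dusp6 lie to the right of their FISC points in both genotypes and Dusp5 does so in WT.

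The order of the genes also differed between the states. Egr1 was the most abundant member in FISC, ranked 43 among all genes in the iKO and 55 in the WT library, and Junb came next, ranked 73 in iKO and 89 in WT. In ASC the most abundant member was Cyr61, ranked 241 in iKO and 111 in WT, followed by Zfp36l2, ranked 1043 in iKO and 735 in WT. Egr1 was ranked 2432 in ASC iKO and 2552 in ASC WT. Cyr61 and Ctgf together made up 38.6% of the members' summed FPKM in ASC iKO and 46.8% in ASC WT, against 12.4% in FISC iKO and 13.0% in FISC WT. Fos and Jun family genes made up 14.3% in ASC iKO and 13.7% in ASC WT, against 34.4% in FISC iKO and 31.8% in FISC WT.

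**Figure D2:**
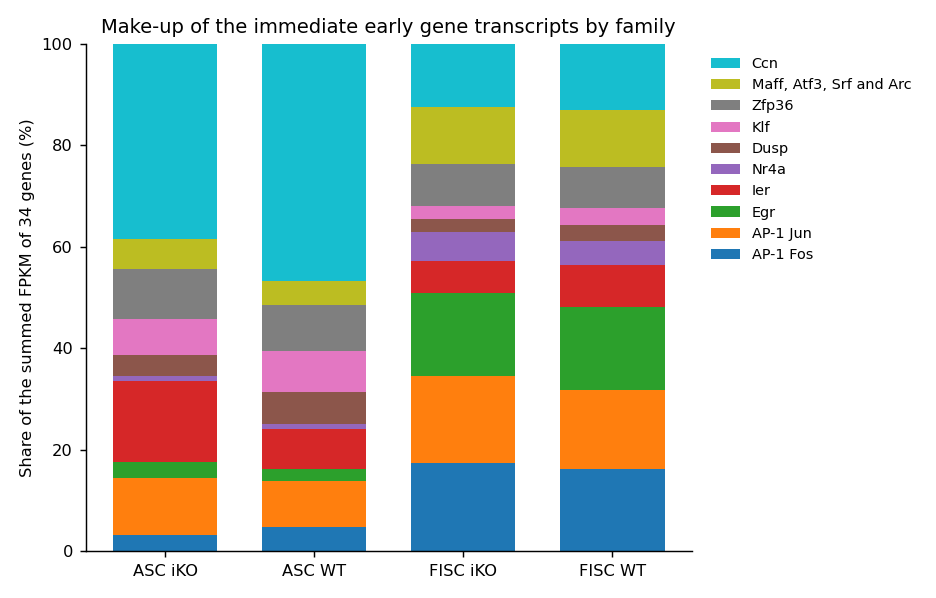
Share of the summed FPKM of the 34 genes (percent, vertical axis) taken by each gene family in each of the 4 libraries. The Egr share was 3.30% in ASC iKO and 2.43% in ASC WT, against 16.4% in FISC iKO and 16.3% in FISC WT, while the Ccn share (Cyr61 and Ctgf) was larger in ASC.

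Activation was read within each genotype as ASC over FISC, log2((FPKM + 1)/(FPKM + 1)), with both libraries brought to 1 sum of FPKM without small RNA genes. This scale understates the ratio of low genes, and calls were made by size, at 2-fold. In iKO, 30 of 34 members were at least 2-fold lower in ASC and 0 were higher, where 27.5% of 11603 genes were lower and 23.1% were higher. In WT, 24 of 33 members with 1 FPKM or more in either state were at least 2-fold lower and 2 were higher, where 16% of 11854 genes were lower and 34.1% were higher. The members' median was −3.74 in iKO and −2.98 in WT, beside medians over all genes of −0.07 in iKO and 0.50 in WT. With the values as deposited, the members' medians were −3.25 in iKO and −3.09 in WT, and those of all genes 0.38 in iKO and 0.40 in WT. Egr2, Egr3, Nr4a3 and Arc passed the minimum level through the FISC library alone in both genotypes, and Egr4 did so in iKO, so their ratios had to lie below 0. The 2 tables may have been normalized separately, and in bulk RNA fewer cells of a type and less RNA per cell cannot be told apart.

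Across 33 members the activation ratio in iKO and that in WT had a Pearson correlation of 0.98 and a Spearman correlation of 0.98, and across 11388 genes 0.89 and 0.87. The 2 ratios share no library, but they share the table of each state and its processing. All 24 members that were 2-fold lower in WT were also 2-fold lower in iKO. This was common among all genes, of which 1898 were 2-fold lower in WT and 1717 were so in both genotypes.

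**Figure D3:**
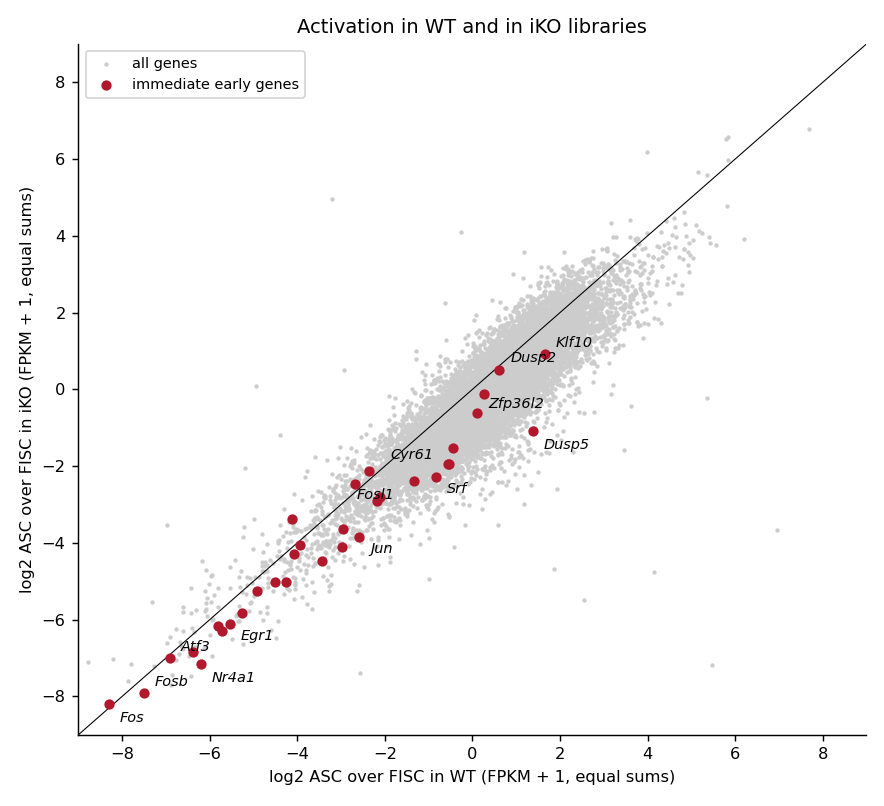
The log2 ratio of ASC over FISC in WT (horizontal) against that in iKO (vertical), for 33 immediate early genes (red points) and all genes (grey), with the line of equality. The members run from Fos at the lower left to Klf10 at the upper right, and Dusp5 lies below the line, positive in WT and negative in iKO.

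The Fos genes encode the partners with which Jun proteins form the AP-1 factor. Fos (chromosome 12, 86814851 to 86818219, mm9) stood at 4.59 FPKM in ASC iKO and 1.76 FPKM in ASC WT, against 1253 FPKM in FISC iKO and 913 FPKM in FISC WT. Its activation ratio was −8.21 in iKO and −8.30 in WT, which is 295-fold lower in iKO and 316-fold lower in WT on the FPKM + 1 scale, the lowest of all members in both genotypes. Fosb, its close relative, followed at 3.95 FPKM in ASC iKO and 2.67 FPKM in ASC WT, against 912 FPKM in FISC iKO and 709 FPKM in FISC WT. Both genes were thus among the 130 most abundant transcripts of each FISC library and under 5 FPKM in ASC. Fosl2, known as Fra-2, stood at 15.2 FPKM in ASC iKO and 21.8 FPKM in ASC WT, against 262 FPKM in FISC iKO and 264 FPKM in FISC WT.

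Fosl1, or Fra-1, a family member known to be transcribed later than Fos and to be an AP-1 target itself, had the smallest state difference of the family. Fosl1 (chromosome 19, 5447698 to 5457563) stood at 19.9 FPKM in ASC iKO and 46.2 FPKM in ASC WT, against 78.1 FPKM in FISC iKO and 127 FPKM in FISC WT, an activation ratio of −2.39 in iKO and −1.33 in WT. It was lower in iKO than in WT in both states, with log2 ratios of −1.17 in ASC and −0.69 in FISC, and was 2-fold lower in ASC. The listed Fosl1 locus overlaps that of Ccdc85b, and that of Srf overlaps Mir6976; the tables give no strand, so reads of overlapping genes may not be separated.

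Of the Jun genes, Jun stood at 55.7 FPKM in ASC iKO and 66.5 FPKM in ASC WT, against 579 FPKM in FISC iKO and 435 FPKM in FISC WT. Junb, which weakens Jun activity in many settings, stood at 62.5 FPKM in ASC iKO and 58.0 FPKM in ASC WT, against 1464 FPKM in FISC iKO and 1225 FPKM in FISC WT. Jund, known as the least inducible Jun gene, stood at 35.6 FPKM in ASC iKO and 17.7 FPKM in ASC WT, against 430.1 FPKM in FISC iKO and 307 FPKM in FISC WT. All 3 were at least 2-fold lower in ASC than in FISC in both genotypes, with ratios from −5.02 for Junb in iKO to −2.58 for Jun in WT. Of the summed FPKM of the 7 AP-1 genes, Fos made up 2.32% in ASC iKO and 0.819% in ASC WT, against 25.2% in FISC iKO and 22.9% in FISC WT. Jun made up 28.2% in ASC iKO and 31.0% in ASC WT, against 11.6% in FISC iKO and 10.9% in FISC WT. Fosl1 made up 10.1% in ASC iKO and 21.5% in ASC WT, against 1.57% in FISC iKO and 3.19% in FISC WT, so the AP-1 transcripts of ASC held less Fos and more Jun and Fosl1.

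Egr genes encode zinc finger factors that bind GC-rich sites such as the EGR motif marked in the Srf and Zfp36 sequences above. Egr1 stood at 43.1 FPKM in ASC iKO and 36.4 FPKM in ASC WT, against 2184 FPKM in FISC iKO and 1882 FPKM in FISC WT, and remained the most abundant Egr gene in ASC. Egr2 stood at 1.03 FPKM in ASC iKO and 0.899 FPKM in ASC WT, against 124 FPKM in FISC iKO and 109 FPKM in FISC WT, and Egr3 at 1.13 FPKM in ASC iKO and 0.678 FPKM in ASC WT, against 67.1 FPKM in FISC iKO and 51.1 FPKM in FISC WT. Both were near 1 FPKM in ASC. Egr4 was low throughout, at 0.205 FPKM in ASC iKO and 0.0686 FPKM in ASC WT, and at 1.33 FPKM in FISC iKO and 0.243 FPKM in FISC WT.

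The Nr4a genes encode orphan nuclear receptors. Nr4a1, also called Nur77, stood at 5.68 FPKM in ASC iKO and 5.54 FPKM in ASC WT, against 711 FPKM in FISC iKO and 510.4 FPKM in FISC WT, a ratio of −7.15 in iKO and −6.20 in WT. Nr4a3, also called Nor1, whose listed locus differs between the 2 tables, stood at 0.277 FPKM in ASC iKO and 0.295 FPKM in ASC WT, against 92.8 FPKM in FISC iKO and 68.3 FPKM in FISC WT. Nr4a2 was the exception in this family, at 7.56 FPKM in ASC iKO and 10.3 FPKM in ASC WT, against 23.5 FPKM in FISC iKO and 16.5 FPKM in FISC WT; it was within 2-fold on activation in WT (−0.53) and beyond it in iKO (−1.95).

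Of the Ier genes, Ier2 stood at 101 FPKM in ASC iKO and 51.8 FPKM in ASC WT, against 397 FPKM in FISC iKO and 367 FPKM in FISC WT. Ier3, linked to cell survival, stood at 83.4 FPKM in ASC iKO and 51.8 FPKM in ASC WT, against 260.3 FPKM in FISC iKO and 294 FPKM in FISC WT, and Ier5, linked to heat shock factor regulation, at 33.2 FPKM in ASC iKO and 18.2 FPKM in ASC WT, against 255 FPKM in FISC iKO and 360.1 FPKM in FISC WT. All 3 genes were at least 2-fold lower in ASC than in FISC in both genotypes. Their FPKM as deposited summed to 218 in ASC iKO and 122 in ASC WT, against 913 in FISC iKO and 1021 in FISC WT.

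Dusp genes encode phosphatases with different targets and places in the cell, and they did not share a direction. Dusp1, which acts in the nucleus on several MAP kinases, stood at 6.77 FPKM in ASC iKO and 7.63 FPKM in ASC WT, against 329.8 FPKM in FISC iKO and 354 FPKM in FISC WT. Dusp6, the cytoplasmic phosphatase of ERK, stood at 33.5 FPKM in ASC iKO and 38.2 FPKM in ASC WT, and at 25.9 FPKM in FISC iKO and 33.97 FPKM in FISC WT. Dusp2 stood at 3.21 FPKM in ASC iKO and 2.80 FPKM in ASC WT, and at 1.29 FPKM in FISC iKO and 1.63 FPKM in FISC WT, within 2-fold in both genotypes. Dusp5 (chromosome 19, 53603808 to 53615812), the nuclear phosphatase of ERK with the tandem CArG boxes above, stood at 14.1 FPKM in ASC iKO and 51.9 FPKM in ASC WT, and at 22.2 FPKM in FISC iKO and 20.9 FPKM in FISC WT. On activation the Dusp5 ratio was −1.08 in iKO and 1.38 in WT; the WT ratio was within 2-fold under upper-quartile scaling (0.93), and the iKO ratio as deposited (−0.62) and with a pseudocount of 5 (−0.86).

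Klf genes encode zinc finger factors that bind GC-rich or CACCC sites. Klf4 stood at 5.33 FPKM in ASC iKO and 6.92 FPKM in ASC WT, against 154 FPKM in FISC iKO and 193 FPKM in FISC WT, and Klf6 at 29.3 FPKM in ASC iKO and 36.9 FPKM in ASC WT, against 163 FPKM in FISC iKO and 185 FPKM in FISC WT, both at least 2-fold lower in ASC. Klf2 stood at 6.02 FPKM in ASC iKO and 10.6 FPKM in ASC WT, against 14.0 FPKM in FISC iKO and 15.8 FPKM in FISC WT, with ratios of −1.52 in iKO and −0.44 in WT. Klf10, known as a gene induced early by TGF-beta, ran the other way, at 57.9 FPKM in ASC iKO and 70.2 FPKM in ASC WT, against 21.3 FPKM in FISC iKO and 23.4 FPKM in FISC WT. Its activation ratio was 0.91 in iKO and 1.66 in WT, the highest of all members in both genotypes.

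The Zfp36 genes encode RNA-binding proteins that bring about decay of AU-rich transcripts. Zfp36, or tristetraprolin, stood at 9.49 FPKM in ASC iKO and 7.24 FPKM in ASC WT, against 887 FPKM in FISC iKO and 728 FPKM in FISC WT. Zfp36l1 stood at 14.2 FPKM in ASC iKO and 19.2 FPKM in ASC WT, against 191 FPKM in FISC iKO and 171 FPKM in FISC WT. Zfp36l2 had deposited levels of 112 FPKM in ASC iKO and 116 FPKM in ASC WT, and of 123 FPKM in FISC iKO and 116 FPKM in FISC WT. The activation ratio was −6.85 in iKO and −6.37 in WT for Zfp36, and −4.12 in iKO and −2.98 in WT for Zfp36l1. For Zfp36l2 it was −0.62 in iKO and 0.11 in WT, within 2-fold, but in iKO it passed 2-fold (−1.34) with equal sums over all genes and in WT it was below 0 (−0.35) under upper-quartile scaling.

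Of the remaining transcription factors, Atf3, a stress-induced relative of CREB, stood at 8.01 FPKM in ASC iKO and 4.29 FPKM in ASC WT, against 856 FPKM in FISC iKO and 674 FPKM in FISC WT. Maff, a small Maf protein, stood at 47.7 FPKM in ASC iKO and 35.0 FPKM in ASC WT, against 679.6 FPKM in FISC iKO and 648 FPKM in FISC WT. Srf, which binds the CArG box and has 2 of them in its own promoter above, stood at 24.2 FPKM in ASC iKO and 33.8 FPKM in ASC WT, against 86.5 FPKM in FISC iKO and 66.0 FPKM in FISC WT. Atf3 and Maff were at least 2-fold lower in ASC in both genotypes, and Srf was so in iKO (−2.27) but not in WT (−0.84). Arc, best known from neurons, stood at 0.413 FPKM in ASC iKO and 0.641 FPKM in ASC WT, against 7.96 FPKM in FISC iKO and 6.25 FPKM in FISC WT.

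Cyr61 and Ctgf encode secreted matrix proteins (CCN1 and CCN2) and are targets of YAP-TEAD as well as of SRF. Cyr61 (chromosome 3, 145309935 to 145312949) stood at 477 FPKM in ASC iKO and 661 FPKM in ASC WT, against 1308 FPKM in FISC iKO and 1042 FPKM in FISC WT, the highest member of the ASC libraries by far. Ctgf stood at 54.5 FPKM in ASC iKO and 69.9 FPKM in ASC WT, against 491 FPKM in FISC iKO and 588 FPKM in FISC WT. The activation ratio of Cyr61 was −1.95 in iKO and −0.55 in WT, and that of Ctgf −3.64 in iKO and −2.95 in WT.

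In FISC, Yy1 was lower in iKO but still listed at 20.1 FPKM. No member was 2-fold higher or lower in iKO, where 0.677% of 11229 genes were higher and 0.721% were lower. Those shares are so small that a list of 34 genes would show few or none, so this count does not set the members apart from all genes. Of the 34 members, 22 had a ratio above 0 and 12 below, with a median of 0.17, beside a median of −0.00 and 49.6% above 0 over all genes. Every measured Jun, Egr, Nr4a and Zfp36 gene, and Maff, Atf3, Srf and Arc, lay above 0, and all 4 Klf genes lay below; these family directions did not turn under upper-quartile scaling, equal sums or centring on locus length. The highest values among genes over 5 FPKM were those of Nr4a2 (0.49), Jund (0.48) and Nr4a1 (0.48), and the lowest those of Fosl1 (−0.69), Ier5 (−0.50) and Dusp6 (−0.38). Egr4 had the highest ratio of all (0.91), but reached 1 FPKM in the iKO library alone, so its ratio had to lie above 0. Among all genes, the Nr4a2, Jund and Nr4a1 ratios stood at percentiles 94.7, 94.7 and 94.4, and the Fosl1, Ier5 and Dusp6 ratios at percentiles 2.56, 6.27 and 10.6.

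In ASC, Yy1 stood at 2.03 FPKM in iKO, and the members' counts past 2-fold did not exceed the shares of all genes. Of 31 members with 1 FPKM or more, 1 was 2-fold higher in iKO (3.23%) and 2 were 2-fold lower (6.45%), where 8.74% of 11215 genes were higher and 8.26% were lower. The one higher was Fos, at 2.03-fold on a base of 1.76 FPKM in WT, and it was within 2-fold under upper-quartile scaling, equal sums, a pseudocount of 5 and centring on locus length. Dusp5 was 3.51-fold lower in iKO and Fosl1 2.25-fold lower, and both stayed at least 2-fold lower under each of these settings. The count of members lower depended on the scaling. It was 5 of 31 when centred on locus length, where 6.69% of all genes were lower, and 6 of 29 with equal sums, where 22.4% were. Among all genes the Dusp5 ratio (−1.81) stood at percentile 1.43 and the Fosl1 ratio (−1.17) at percentile 5.55. Just inside 2-fold were Jund (0.96) and Ier2 (0.95). Egr4, Nr4a3 and Arc were below 1 FPKM in both ASC libraries and had no ratio, and Egr2 and Egr3 passed through the iKO library alone.

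By family, the Ier genes had the highest median in ASC, 0.83 with 3 of 3 above 0. Centred on locus length it was 0.16, below the 0.19 of the Maff, Atf3, Srf and Arc group. All 4 Klf genes lay below 0 (−0.72, −0.32, −0.33 and −0.27 for Klf2, Klf4, Klf6 and Klf10), and so did Cyr61 (−0.47) and Ctgf (−0.35), under every scaling tried. Of the 3 measured Egr genes, Egr2 and Egr3 had to lie above 0 because they passed the minimum through iKO alone; Egr1 lay at 0.24. The 3 lay below 0 when centred on locus length (median −0.43), and Egr1 did so with equal sums (−0.32). The Jun median of 0.11 turned to −0.03 under upper-quartile scaling, −0.46 with equal sums and −0.57 centred on locus length. Over all 31 genes the median was −0.05, beside −0.00 for all genes, with 15 above 0 and 16 below.

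Locus length is given beside these values because the ASC ratio of all genes moved with it. The members' loci were short, with a median of 4.14 kb and 28 of 34 under 10 kb, against a median of 24.5 kb for all measured genes. Genes were cut by length into 10 classes. In the shortest class, which held 17 of the 31 members, the median ASC ratio was 0.67, and in the longest −0.48; in FISC these medians were 0.04 and −0.04. Of the 31 members, 8 lay above the median of all genes in their own length class and 23 below, with a median difference of −0.55. In FISC 22 of 34 lay above theirs, with a median difference of 0.15. Klf2, Cyr61 and Ctgf, within 2-fold as deposited, were at least 2-fold below the median of their length class in ASC. The part of locus length in single ratios was not tested.

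**Figure D4:**
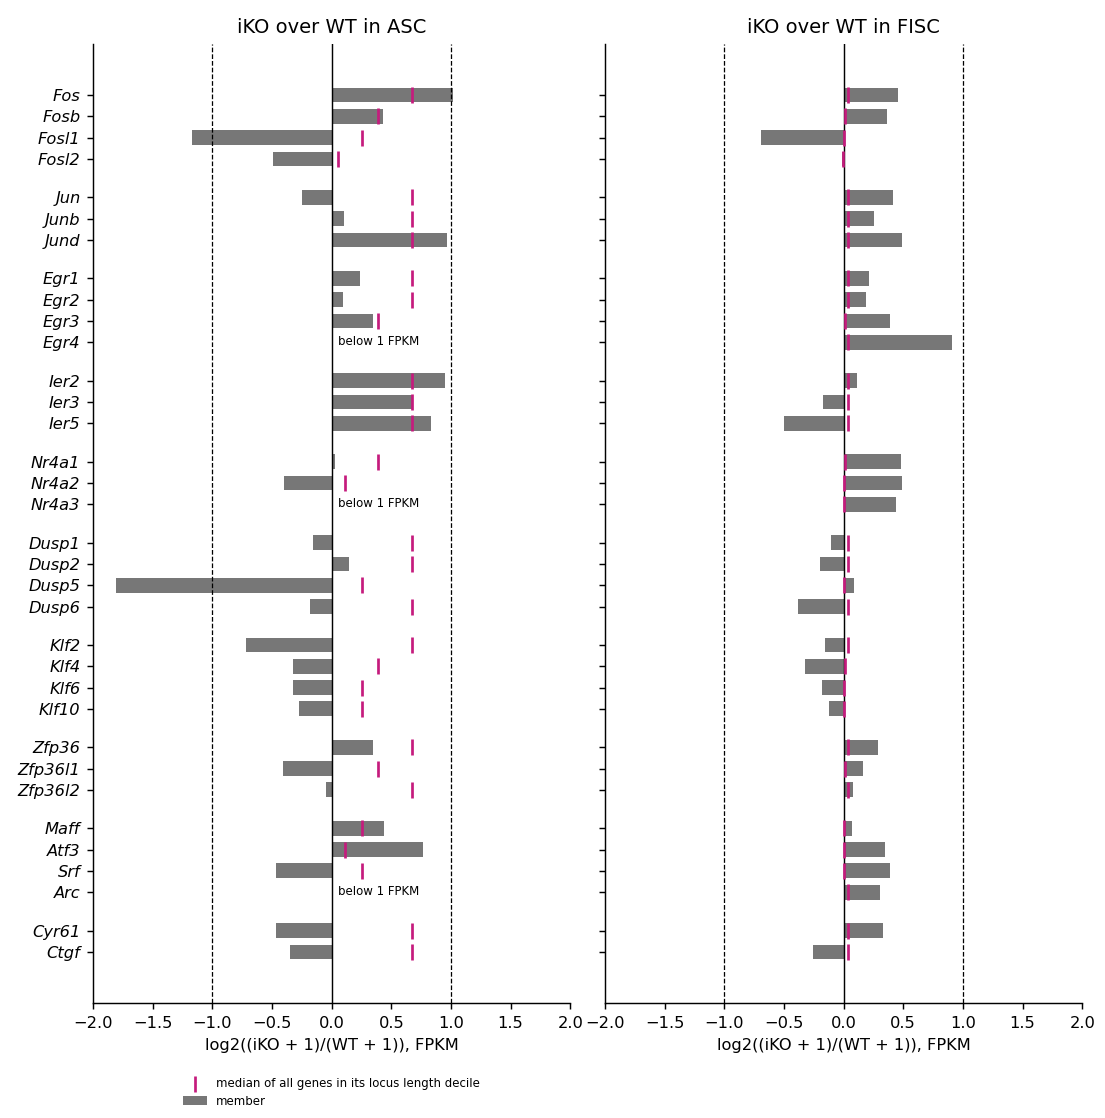
The log2 ratio of iKO over WT for each immediate early gene (grey bars) in ASC (left) and FISC (right), on FPKM + 1, with dashed lines at 2-fold and a pink tick at the median of all genes in the same locus length class. In ASC Dusp5 and Fosl1 pass the lower line and Fos just passes the upper one, and most bars end to the left of their tick; in FISC all bars stay within 2-fold.

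The iKO ratios of the 2 states were set against each other without a test. The ASC ratio minus the FISC ratio had a median of −0.09 over 31 members, with 12 above 0 and 19 below, beside a median of 0.02 over 10251 genes. It exceeded 1 in size for 2 members (Dusp5 at −1.90 and Ier5 at 1.33), where 16.6% of all genes did so. Ier5 stood at 33.2 FPKM in ASC iKO and 18.2 FPKM in ASC WT, with a ratio of 0.83, and in FISC had a ratio of −0.50. No member was at least 1.5-fold higher in one state and 1.5-fold lower in the other. Fosl1 had a ratio below 0 in both states, and so did Fosl2, Dusp1, Dusp6, Ctgf and all of the Klf genes.

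YY1 peaks were read by their distance from the listed loci. Of 34 members, 1 had a peak summit inside its listed locus or within 2 kb of it (2.94%), where 9.85% of the 11215 genes measured in ASC did. The window holds the whole locus, so it was shorter for the members (median locus 4.14 kb) than for all genes (24.5 kb). The median distance to the nearest peak was 169.7 kb for members and 225 kb for all genes. The gene with a peak within 2 kb was Zfp36l2 (chromosome 17, 84583269 to 84587287, mm9), with a summit at 84582937, 0.332 kb outside the locus. The peak had the lowest score of the list, 40, a fold enrichment of 3.62 over the local background and a −log10 q of 0, all the authors' own values. Within 10 kb, Ier2 (2.26 kb away, score 52) and Jun (7.66 kb away, score 40) were added, 8.82% of members against 12.6% of genes. With the 1015 peaks of highest −log10 q, 0 members had one, against 6.74% of genes. The lowest −log10 q kept, 0.246, was also that of peaks left out, since ties were broken by p and then by peak name. The Zfp36l2 peak, at 0, lay outside this set however ties were broken. Dusp5, Fosl1 and Fos had none within 10 kb, and the peak nearest to Fos lay 19.5 kb away.

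Genes around the immediate early list were read from 9 further lists, beside the shares of all genes, 27.5% lower and 23.1% higher in iKO and 16% lower and 34.1% higher in WT. Other early response genes, such as Myc, Cebpd and Gadd45a, had the largest share lower on activation: 22 of 22 were at least 2-fold lower in ASC in iKO and 21 of 22 in WT, with medians of −3.55 in iKO and −3.33 in WT. Cebpd, a C/EBP factor, stood at 5.89 FPKM in both ASC libraries, against 537 FPKM in FISC iKO and 588 FPKM in FISC WT. Heat shock genes had 7 of 10 lower in iKO and 5 of 10 in WT, with Hspa1a, an inducible Hsp70, at 7.79 FPKM in ASC iKO and 3.37 FPKM in ASC WT, against 1258 FPKM in FISC iKO and 1083 FPKM in FISC WT. Of the other AP-1, ATF and Maf genes, 5 of 8 measured were lower in iKO and 3 of 8 in WT, led by Mafk. Of the ERK cascade, 2 of 14 were lower and 2 higher in iKO, and 1 was lower and 4 were higher in WT, and of the p38 and JNK cascade 3 of 10 were lower in iKO and 0 of 10 in WT.

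SRF cofactors and CREB family genes had 7 of 11 lower in ASC in iKO and 4 of 11 in WT. Crem, a CREB relative, stood at 12.1 FPKM in ASC iKO and 5.76 FPKM in ASC WT, against 65.1 FPKM in FISC iKO and 67.5 FPKM in FISC WT, while Elk3, an SRF cofactor, was higher in ASC (29.7 FPKM in ASC iKO and 32.9 FPKM in ASC WT, against 3.79 FPKM in FISC iKO and 4.15 FPKM in FISC WT). SRF-MRTF targets of the cytoskeleton had 5 of 14 lower and 2 higher in iKO, and 1 lower and 6 higher in WT. Tpm1, a tropomyosin, was among the higher in both, at 499 FPKM in ASC iKO and 418 FPKM in ASC WT, against 36.0 FPKM in FISC iKO and 35.2 FPKM in FISC WT. In the YAP-TEAD list, 6 of 12 were lower and 2 higher in iKO, and 2 of 13 lower and 5 higher in WT, with Ankrd1 at 723 FPKM in ASC iKO and 745 FPKM in ASC WT, against 116 FPKM in FISC iKO and 112 FPKM in FISC WT. Delayed early and ERK feedback genes had 10 of 18 lower and 3 higher in iKO, and 5 of 19 lower and 3 higher in WT, with Il6 lowest of those named in both.

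Between the genotypes in ASC, 8.26% of all genes were at least 2-fold lower in iKO and 8.74% higher, beside which the counts below stand. The delayed early list had 2 of 17 genes lower. Spred2, an inhibitor of the Ras-ERK pathway, stood at 1.77 FPKM in ASC iKO and 29.2 FPKM in ASC WT, and Dusp4, a nuclear MAP kinase phosphatase, at 3.78 FPKM in ASC iKO and 16.0 FPKM in ASC WT. Areg, an EGF receptor ligand, was the 1 that was higher, at 23.2 FPKM in ASC iKO and 8.28 FPKM in ASC WT. Of the SRF-MRTF targets 2 of 14 were lower, Vcl at 0.611 FPKM in ASC iKO and 17.4 FPKM in ASC WT and Tln1 at 24.4 FPKM in ASC iKO and 58.2 FPKM in ASC WT. Of the SRF cofactors and CREB family genes 1 of 11 was lower, Elk4, at 1.53 FPKM in ASC iKO and 6.78 FPKM in ASC WT. Other early response genes had 5 of 22 higher and 0 lower, led by Gadd45a (119 FPKM in ASC iKO and 35.9 FPKM in ASC WT). Heat shock genes had 2 of 10 higher and 0 lower. These were Hspe1, at 1411 FPKM in ASC iKO and 563 FPKM in ASC WT, and Hspa1a, at 7.79 FPKM in ASC iKO and 3.37 FPKM in ASC WT. The ERK cascade had 1 of 14 lower, Rps6ka3, and the YAP-TEAD list 1 of 13. In the 2 remaining lists 0 genes were past 2-fold. Medians were −0.38 for the delayed early list, −0.38 for SRF-MRTF targets, −0.62 for YAP-TEAD and 0.08 for other early genes, beside −0.00 for all genes. These list medians were not centred on locus length. The ASC median of all genes was 0.67 in the shortest length class and −0.48 in the longest, and its part in the list medians was not tested. In FISC, 2 genes of these lists were 2-fold lower in iKO and 0 were higher, where 0.721% of 11229 genes were lower and 0.677% were higher. Both were in the delayed early list, of which 18 genes were measured in FISC. The lowest over 5 FPKM was Lif, a cytokine, at 27.4 FPKM in FISC iKO and 59.9 FPKM in FISC WT.

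Markers of other cell types also differed between the states. Fibro-adipogenic markers (5 of 5 listed) summed to 7.73 FPKM in ASC iKO and 12.4 FPKM in ASC WT, against 199.6 FPKM in FISC iKO and 188 FPKM in FISC WT, led by Dcn in every library. The erythroid markers (3 of 3) summed to 0.0561 FPKM in ASC iKO and 0 in ASC WT, against 286 FPKM in FISC iKO and 214 FPKM in FISC WT, with both Hba genes listed at 0 in ASC. Endothelial, pericyte, Schwann and muscle fibre markers each summed to at most 5.41 FPKM in ASC and at most 24.8 FPKM in FISC. Immune markers (6 of 7 found) summed to 15.5 FPKM in ASC iKO and 4.18 FPKM in ASC WT, and to 10.5 FPKM in FISC iKO and 9.71 FPKM in FISC WT. Ptprc, which defines leukocytes, was listed at 0 in ASC and at most 0.116 FPKM in FISC. Cd14 stood at 9.75 FPKM in ASC iKO and 2.80 FPKM in ASC WT, and Cd68 at 5.16 FPKM in ASC iKO and 1.36 FPKM in ASC WT. These were the 2 immune markers measured in ASC, and both were at least 2-fold higher in iKO, where 8.74% of 11215 genes were so. Satellite cell markers (9 of 9) summed to 1190 FPKM in ASC iKO and 1375 FPKM in ASC WT, against 3145 FPKM in FISC iKO and 3369 FPKM in FISC WT. The part of these markers in the immediate early values was not tested.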

How the data were processed

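The authors deposited FPKM values for each gene in 1 table per state, per the file headers, and 1 YY1 peak list. Build mm9, MACS2 2.1.0, Cufflinks 2.2.1 and TopHat2 are named, with no role, per the submitters' processing notes. The sources used here do not give the annotation, strand setting or scaling. Each column was assigned by its state and genotype. The deposited peak score, fold enrichment, −log10 p and −log10 q are the authors' values.

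Ratios were log2((FPKM + 1)/(FPKM + 1)) for genes with at least 1 FPKM in either library, called at 2-fold; activation ratios used equal sums without small RNA genes. No test was run, since each group had 1 library. Depth could be read only as a ratio within a state, and only if FPKM was scaled to total fragments. Of 1573 ASC genes and 1542 FISC genes at most at 0.3 FPKM, 17.2% and 26.7% shared the commonest ratio to within 0.01. Scripts ran in Python 3.11.15 with pandas 2.3.3 and were tested on simulated data. Motif windows were 300 bases, and the TATA box and EGR motif were added after the data were seen. All 34 members could be named, and of each context list the 2 highest and 2 lowest genes per comparison over 5 FPKM. The members and lists were chosen with earlier results of these data known. Start positions of loci were raised by 1 to count from 1.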

Additional observations from a re-analysis of the deposited data

How the results depend on the processing

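The direction of the members on activation held under each alternative tried: with the call at 2-fold, 28 to 31 members were lower in iKO and 23 to 26 in WT, and at 3-fold 27 in iKO and 23 in WT. Of 1175 single member values under an alternative, 1133 kept their side of the threshold, 17 lost and 25 gained a call, and 0 called values changed sign. A filter does not alter a ratio, so the 132 values without a filter and the 122 with a filter at 5 FPKM had to stay the same. At 1.5-fold and 3-fold only the threshold moved, so those values could not change sign. With 1 library per group, no library could be left out. No paired analysis was possible because each group had 1 sample. The sums of FPKM bear on ASC iKO most, since equal sums lowered it by a factor of 0.673 against ASC WT and moved the median of all genes to −0.50.

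Counts over members and lists that moved by over 1.5 times follow. In FISC, members higher in iKO numbered 1 with a pseudocount of 0.1 and 1 at 1.5-fold (Egr4 in both), and members lower 1 at 1.5-fold (Fosl1), against 0 and 0. In ASC, members higher in iKO numbered 2 with a pseudocount of 0.1, 6 at 1.5-fold and 0 under a pseudocount of 5, a filter at 5 FPKM, 3-fold, upper-quartile scaling, length centring and equal sums, against 1. Members lower in ASC iKO numbered 1 at 3-fold, 5 with length centring and 6 with equal sums, against 2. On activation in WT, members higher numbered 1 at 3-fold and 1 under upper-quartile scaling, against 2, and in iKO 1 at 1.5-fold and 1 as deposited, against 0. Members with a YY1 peak numbered 3 within 10 kb and 0 with the 1015 peaks of highest −log10 q, against 1.

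Over the context lists, genes lower in FISC iKO numbered 1 under upper-quartile scaling, equal sums, a pseudocount of 5 and a filter at 5 FPKM, 5 at 1.5-fold and 0 at 3-fold, against 2, and 1 was higher at 1.5-fold, against 0. In ASC, those higher in iKO numbered 5 with a pseudocount of 5, 13 at 1.5-fold, 1 at 3-fold, 5 under upper-quartile scaling, 4 with length centring and 1 with equal sums, against 8. Those lower in ASC iKO numbered 4 with a pseudocount of 5, 23 at 1.5-fold, 4 at 3-fold, 13 under upper-quartile scaling and 29 with equal sums, against 7. On activation in WT, those higher numbered 33 at 1.5-fold, 12 at 3-fold and 13 under upper-quartile scaling, against 20. In iKO, those higher numbered 18 as deposited, against 11, and those lower 44 at 3-fold, against 67. Over all genes, FISC iKO over WT gave 194 higher and 217 lower with a pseudocount of 0.1, 26 and 35 with a pseudocount of 5, 43 and 60 with a filter at 5 FPKM, 361 and 462 at 1.5-fold and 22 and 13 at 3-fold, against 76 and 81. ASC iKO over WT gave 576 higher and 306 lower with a pseudocount of 5, 2384 and 2268 at 1.5-fold, 141 and 254 at 3-fold, 164 and 2464 with equal sums, 653 and 1199 under upper-quartile scaling and 632 and 750 with length centring, against 980 and 926. Activation in WT gave 2634 higher and 1130 lower with a pseudocount of 5, 2134 and 1116 at 3-fold and 2619 and 2526 under upper-quartile scaling, against 4037 and 1898, and in iKO 1736 and 1837 with a pseudocount of 5, 1444 and 1884 at 3-fold, 3980 and 2427 as deposited and 1335 and 4642 with equal sums over all genes, against 2677 and 3188. The cause was not tested. Depth limits the members near or under 1 FPKM in ASC most (Egr2, Egr3, Egr4, Nr4a3 and Arc).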
